A study of Mus musculus with 6 samples.

Results

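The genes described here are 9 components of the Sonic hedgehog pathway, Shh, Ptch1, Smo, Gli1, Gli2, Gli3, Hhip, Gas1 and Boc. They were chosen by gene symbol out of 56941 genes in the count table, and all 9 had a row there and passed the filter on low counts, as did 32149 genes in all. RNA-seq of total RNA had been carried out on hair follicle stem cells (HFSCs) sorted by FACS as CD34+/α6-integrin+ cells from the dorsal skin of female mice at postnatal day (PD) 68. The labels give 3 biological replicates for each genotype, WT and Dab2-cKO, and each replicate was 1 library. All mice carried the floxed Dab2 allele in both copies (Dab2 fl/fl, from the B6;129S4-Dab2tm1Cpr/J line) and all received tamoxifen at 75 mg/kg/day for 5 days. Dab2-cKO mice also carried K14CreER, a tamoxifen-inducible Cre driven by the keratin 14 promoter, which is active in basal cells of the epidermis and of the follicle epithelium. Because WT mice lacked Cre, loss of Dab2 and the presence of an active Cre cannot be told apart. Whether animals were pooled for a library is not given in the sources used here, so the p-values below measure the spread between these libraries.

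The libraries held 7040032 to 9518564 counted reads when labelled WT and 9374373 to 11696457 when labelled Dab2-cKO, and the mitochondrial share was 13.0 to 14.4% and 19.1 to 20.3%, respectively. Dab2 itself, the gene targeted by the deletion, went against the labels at the level of the whole gene. With a log2 fold change of 2.08, it averaged a normalized count of 327 ± 15.4 (SD, n = 3) under the WT label and 1375 ± 68.2 under the Dab2-cKO label. The count table gives whole genes, so it does not show the deleted exon. Every direction below therefore holds for the libraries as labelled, and WT and Dab2-cKO stand for the libraries with these labels. Of the sorting markers, Cd34 rose from 510 ± 53.2 to 1780 ± 35.6 and Itga6, which encodes α6-integrin, from 960 ± 41.5 to 1409 ± 47.8.

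Hedgehog signalling is started by a secreted ligand. In its absence Patched 1, the receptor encoded by Ptch1, keeps Smoothened (Smo) inactive, and binding of Sonic hedgehog (Shh) to Patched 1, helped by co-receptors such as Gas1 and Boc, releases Smoothened at the primary cilium. Smoothened then acts on the Gli transcription factors. Gli1 and Ptch1 are themselves transcribed when the pathway is active and are widely used as its readout, and Hhip is an induced decoy that binds the ligand. In skin, Shh is made by epithelial cells of the growing follicle and is needed for hair growth, while epithelial and dermal cells around it can both respond.

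Among the 9 genes, the libraries labelled Dab2-cKO had 7 lower and 1 higher, and 1 did not pass the test. A gene was called when the Benjamini-Hochberg adjusted p of edgeR's quasi-likelihood test, taken over all genes tested, was under 0.05. Of all genes tested, 11.5% were called lower and 16.8% higher. These shares rise with abundance. A further fit kept only the 14801 genes with a mean count of at least 50, all 9 members among them. It called 4062 of these lower and 4461 higher. Of the 9, the 7 lower genes were Shh, Ptch1, Smo, Gli1, Gli2, Gli3 and Hhip, and the higher gene was Gas1. For each of these 8 genes the 3 libraries of one label did not overlap those of the other. Over all genes tested, 17.7% had every library labelled Dab2-cKO below every library labelled WT and 20.6% had the opposite order. The median log2 fold change (Dab2-cKO over WT) of the 9 genes was -1.25, against -0.02 for all genes tested. The direction of calls over all genes depended on scaling, since 40.6% of the called genes were lower with TMM, 56.5% with upper-quartile scaling and 80.6% with library size only, whereas the 8 called members kept direction and call under each of these.

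Normalized counts below are counts divided by the library's effective size (total times TMM factor) and multiplied by the mean effective size. They are given for replicates 1, 2 and 3 of each label in turn.

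**Figure D1:**
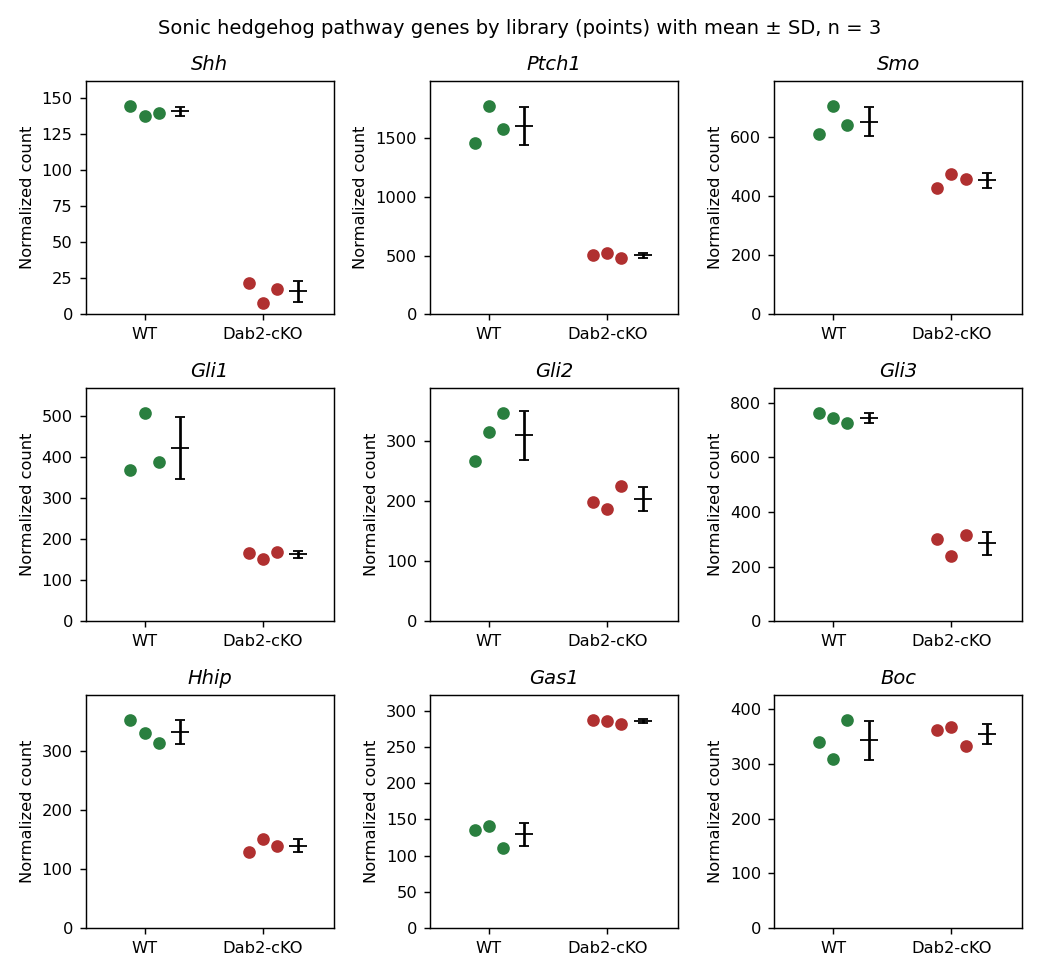
Normalized count (linear axis from 0) of each of the 9 genes in the 3 libraries labelled WT (green) and the 3 labelled Dab2-cKO (red), with points for libraries and black marks for mean ± SD. The labels do not overlap for any gene but Boc, and Gas1 is the gene that is higher in Dab2-cKO.

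Promoter sequence is shown for Hhip and Gas1, which moved in opposite directions. The windows run from 250 to 51 bases before the RefSeq start of each gene and come from the GRCm38.p6 assembly. Each is read 5′ to 3′ on the gene's own strand, and CpG pairs are in capitals.
Hhip (chr8:80058059-80058258, minus strand): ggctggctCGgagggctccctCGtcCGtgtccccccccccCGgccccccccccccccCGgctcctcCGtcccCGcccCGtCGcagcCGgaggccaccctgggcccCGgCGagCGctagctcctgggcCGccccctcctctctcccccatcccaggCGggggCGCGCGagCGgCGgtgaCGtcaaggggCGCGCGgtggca
Gas1 (chr13:60177586-60177785, minus strand): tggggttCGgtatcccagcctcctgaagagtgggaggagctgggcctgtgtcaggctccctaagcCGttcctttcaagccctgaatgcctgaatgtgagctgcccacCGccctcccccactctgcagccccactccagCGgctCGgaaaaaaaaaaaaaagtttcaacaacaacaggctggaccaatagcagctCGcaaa
The Hhip window held 24 CpG pairs and the Gas1 window 6, against a median of 4.0 over the 32851 windows of the RefSeq table. Windows were matched for 6 of the 9 genes, and those of Gli3, Gli2 and Smo held 24, 18 and 11 CpG pairs. The Ptch1 window lies within the annotated 5′ UTR of a Ptch1 transcript, so its CpG count is not given as that of a promoter. The Gli-binding letters GACCACCCA were searched on both strands. They were found in none of the 6 windows, that of Ptch1 included, nor in any of the 40 windows matched to these and the other pathway genes. Of all windows of this length, 0.192% held them. At that rate no match was to be expected in 40 windows, so the search cannot tell whether Gli factors bind near these genes.

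Shh (ENSMUSG00000002633, GRCm39 chr5:28661813-28672254, minus strand), the ligand, showed the steepest fall of the 9 genes. Its raw counts were 130, 153 and 164 in WT and 23, 7 and 16 in Dab2-cKO. The normalized counts were 145, 138 and 140 against 21.9, 8.05 and 17.7, so that the highest library labelled Dab2-cKO was well under the lowest labelled WT. The log2 fold change was -3.11 (SE 0.24, 95% interval -3.59 to -2.63, edgeR adjusted p = 1.89e-18), which is 8.63-fold lower. Only 0.498% of the genes tested had a more negative log2 fold change. Because the remaining counts were few, their level was set beside 1521 olfactory, vomeronasal and trace-amine receptor genes, which are expressed mainly in sensory neurons. As normalized count per kb of exon, Shh was at 49.5 ± 1.19 (SD, n = 3) in WT and 5.58 ± 2.50 in Dab2-cKO, and the receptor genes had a median of 4.94 in WT and 4.84 in Dab2-cKO, with 95th percentiles of 12.4 and 11.8. In the libraries labelled Dab2-cKO, Shh was thus within the range of the receptor genes. A lncRNA on the opposite strand, 9530036O11Rik, covers 22.55% of the exon bases of Shh, and its log2 fold change was -0.48 (SE 0.25, adjusted p = 0.164). The strand setting of the read counting is not given in the sources used here.

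Ptch1 (ENSMUSG00000021466, chr13:63656142-63721412, minus strand), the receptor and a target of the pathway, was the most abundant member in the libraries labelled WT. Its normalized counts were 1459, 1774 and 1581 in WT and 509, 522 and 481 in Dab2-cKO. Every library labelled Dab2-cKO was far under the lowest labelled WT, and the log2 fold change was -1.67 (SE 0.08, edgeR adjusted p = 1.59e-29), or 3.18-fold lower. Smo (ENSMUSG00000001761, chr6:29735407-29762532, plus strand), the signal transducer that Patched 1 restrains, fell less. It had 608, 703 and 640 in WT and 425, 475 and 457 in Dab2-cKO, with a log2 fold change of -0.53 (SE 0.09, adjusted p = 4.30e-07), or 1.44-fold lower.

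The co-receptors Gas1 and Boc, both membrane proteins that bind Shh and help present it to Patched 1, did not follow Ptch1. Gas1 (ENSMUSG00000052957, chr13:60322219-60325179, minus strand) had normalized counts of 136, 141 and 111 in WT and 288, 287 and 283 in Dab2-cKO. The lowest library labelled Dab2-cKO stood above the highest labelled WT, with a log2 fold change of 1.15 (SE 0.13, edgeR adjusted p = 3.49e-12), or 2.22-fold higher. The lncRNA Gm48488 covers 19.89% of the Gas1 exon bases on the opposite strand and had a log2 fold change of 0.33 (SE 0.25, adjusted p = 0.390). Boc (ENSMUSG00000022687, chr16:44305290-44379432, minus strand) had 340, 309 and 381 in WT and 362, 368 and 333 in Dab2-cKO. Its libraries overlapped, and the log2 fold change was 0.05 with a 95% interval from -0.16 to 0.25 (adjusted p = 0.808). The sign for Boc, unlike those of the other 8 members, turned with upper-quartile scaling (-0.10) and with library size only (-0.38, adjusted p = 0.000839). The median of all genes moved to -0.17 and -0.45 under these scalings. Relative to the median of all genes, Boc stood at 0.07 in each of the 3 scalings.

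Hhip (ENSMUSG00000064325, chr8:80692480-80784658, minus strand), the ligand-binding inhibitor, fell with Ptch1. It had 354, 331 and 314 in WT and 130, 151 and 139 in Dab2-cKO, with no overlap. The log2 fold change was -1.25 (SE 0.12, edgeR adjusted p = 1.93e-14), or 2.38-fold lower.

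Of the Gli factors, Gli1 acts as an activator, whereas Gli3 acts mainly as a repressor and Gli2 mainly as an activator once signalling releases it from processing. Gli1 (ENSMUSG00000025407, chr10:127165751-127177865, minus strand) had normalized counts of 367, 507 and 388 in WT and 167, 152 and 169 in Dab2-cKO. It was 2.59-fold lower, at a log2 fold change of -1.37 (SE 0.12, edgeR adjusted p = 1.61e-16). Gli3 (ENSMUSG00000021318, chr13:15637809-15904611, plus strand) had 764, 746 and 725 in WT and 302, 237 and 316 in Dab2-cKO. It fell by a similar amount, 2.61-fold, at -1.38 (SE 0.09, adjusted p = 2.38e-21). Gli2 (ENSMUSG00000048402, chr1:118761858-118982598, minus strand) had 267, 315 and 348 in WT and 199, 186 and 225 in Dab2-cKO, with no overlap between the labels. Its log2 fold change was -0.61 (SE 0.12, adjusted p = 1.19e-05), or 1.53-fold lower.

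Ratios between pairs of these genes were taken from the raw counts within each library, so that no scaling between libraries entered. With 3 libraries per label, the exact 2-sided permutation test cannot go below 0.1. For 8 of the 9 ratios computed the labels did not overlap and p was 0.1 in this exact test (Benjamini-Hochberg adjusted 0.1125), so that none could pass 0.05. Genes that differ singly by unequal amounts tend to separate as a ratio too, and ratios of other gene pairs were not computed. The ratio of Ptch1 to Smo was 2.40, 2.52 and 2.47 in WT and 1.20, 1.10 and 1.05 in Dab2-cKO, and its mean was 2.21-fold lower. Ptch1 to Gas1 showed the widest shift, from 12.5 ± 1.75 (SD, n = 3) to 1.76 ± 0.0602. Boc to Gas1 changed from 2.71 ± 0.645 to 1.24 ± 0.0548. Shh to Ptch1 went from 0.0886 ± 0.0107 to 0.0317 ± 0.0145, with the 3 libraries labelled Dab2-cKO below the 3 labelled WT. Ptch1 to Gli1 and Ptch1 to Hhip moved less, by 1.24-fold and 1.33-fold.

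Among the Gli factors, Gli1 to Gli2 went from 1.37 ± 0.248 (SD, n = 3) to 0.801 ± 0.0453, and Gli2 to Gli3 from 0.417 ± 0.0649 to 0.720 ± 0.0638. The ratio of Gli1 to Gli3 was 0.565 ± 0.103 in WT and 0.576 ± 0.0568 in Dab2-cKO, a log2 difference of 0.04 with an SE of 0.17 (exact permutation p = 0.8), and its libraries overlapped. Per kb of exon, Gli2 made up 19.6 ± 2.42% of the summed level of the 3 Gli genes in WT and 29.3 ± 1.13% in Dab2-cKO. The shares of Gli1 were 42.4 ± 4.05% and 37.7 ± 1.57%, and those of Gli3 38.0 ± 3.56% and 33.0 ± 1.93%.

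**Figure D2:**
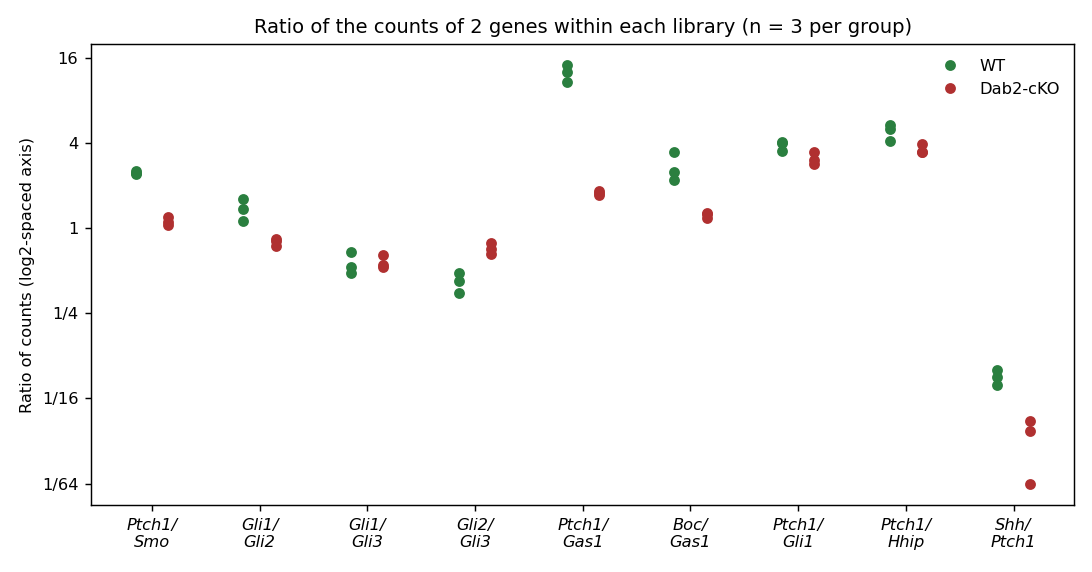
Ratio of the raw counts of 2 genes within each library, on an axis with log2 spacing, with points for the 3 libraries labelled WT (green) and the 3 labelled Dab2-cKO (red). Points of the labels overlap for Gli1/Gli3, and the widest separation is that of Ptch1/Gas1, with means of 12.5 and 1.76.

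Levels were compared between genes as normalized count per kb of exon. In the libraries labelled WT the order was Ptch1 (109 ± 10.8, SD, n = 3), Gli1 (83.9 ± 15.1), Gli3 (74.4), Smo (73.6), Boc (70.5), Shh (49.5), Gas1 (43.7), Gli2 (38.5) and Hhip (31.0). From Ptch1 down to Boc each gene overlapped the next over the libraries, as did Gas1 and Gli2. Boc was apart from Shh, Shh from Gas1, and Gli2 from Hhip. In the libraries labelled Dab2-cKO the order was Gas1 (96.5), Boc (72.9), Smo (51.2), Ptch1 (34.2 ± 1.43), Gli1 (32.4 ± 1.85), Gli3 (28.5), Gli2 (25.3), Hhip (13.0) and Shh (5.58). There, Ptch1 overlapped Gli1, Gli1 overlapped Gli3 and Gli3 overlapped Gli2, and the other neighbours were apart. Gas1 thus went from the seventh place to the first, and Ptch1 from the first to the fourth.

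**Figure D3:**
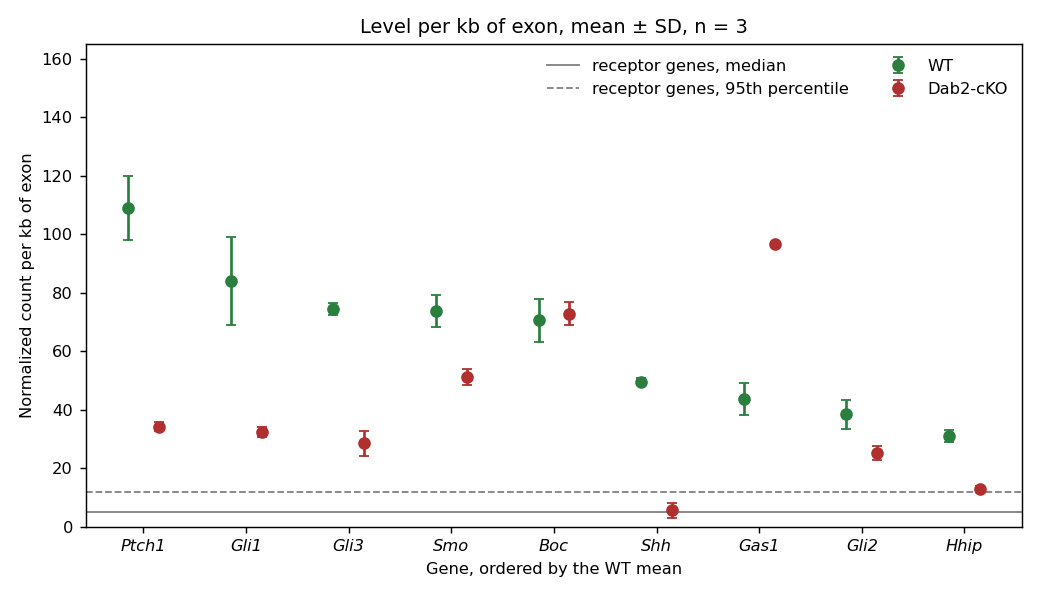
Normalized count per kb of exon (linear axis from 0) of the 9 genes, as mean ± SD of the 3 libraries labelled WT (green) and the 3 labelled Dab2-cKO (red), with the median (solid line) and 95th percentile (dashed line) of the receptor genes over all libraries. Ptch1 has the highest mean in WT (109) and Gas1 in Dab2-cKO (96.5).

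Beyond these 9, 39 other genes of the pathway were listed and all were tested. Of these, 15 were called lower and 6 higher, beside 11.5% and 16.8% of all genes tested. In the fit of genes with a mean count of at least 50, 26 of these other pathway genes were called. Ihh, Dhh, Foxf1 and Foxf2 were too scarce to enter it, with total counts over the 6 libraries of 98, 209, 126 and 118. That fit called 8523 of its 14801 genes. Among 7 genes of ligand supply, 2 were lower, 1 higher and 4 not called, with a median log2 fold change of 0.04. Scube3 and Scube1, secreted proteins that help release hedgehog ligands from cells, fell. The normalized count of Scube3 went from 387 ± 5.39 (SD, n = 3) to 101 ± 11.2 (log2 fold change -1.93, edgeR adjusted p = 1.68e-22). That of Scube1 went from 230 ± 8.06 to 88.7 ± 8.90 (-1.37, adjusted p = 5.76e-13). Disp1, the transporter that exports the ligand, rose from 141 ± 9.26 to 194 ± 9.14 (0.46, adjusted p = 0.00478). The call for Disp1 was lost with upper-quartile scaling (0.32) and with library size only (0.032), where the list's median was also below 0 (-0.10 and -0.38). The other ligands were scarce and not called, with Ihh at 14.5 ± 5.51 and 18.9 ± 3.76 and Dhh at 28.3 ± 3.37 and 41.6 ± 5.54.

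Both further receptors listed were called, 1 higher and 1 lower. Cdon, a co-receptor related to Boc, rose from 252 ± 13.1 (SD, n = 3) to 545 ± 24.5 (log2 fold change 1.11, edgeR adjusted p = 3.61e-16). Lrp2, an endocytic receptor that can bind Shh, had a log2 fold change of -0.29 (adjusted p = 0.0375), a call that was lost with DESeq2 and without WT replicate 2 (-0.20), Dab2-cKO replicate 1 (-0.29) or Dab2-cKO replicate 2 (-0.28). Per kb of exon, Boc made up 49.9 ± 4.62% of the summed level of Gas1, Boc and Cdon in WT and 32.0 ± 1.28% in Dab2-cKO. The share of Gas1 was 30.9 ± 4.20% and 42.3 ± 0.529%, and that of Cdon 19.2 ± 0.682% and 25.7 ± 1.28%. Because the 3 shares are parts of the same sum, the share of Boc falls when Gas1 and Cdon rise. Per kb of exon, Boc itself was at 70.5 in WT and 72.9 in Dab2-cKO. The shares of the labels did not overlap for any of the 3 co-receptors, which adds nothing to the calls of the single genes.

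Of 10 genes of the cilium and of Smo transport, 1 was lower, 2 were higher and 7 were not called (median -0.06). These counts depended on scaling, with 5 lower and 1 higher with upper-quartile scaling (median -0.20), and 7 lower and 1 higher with library size only (median -0.49). Tulp3, an adaptor for transport into the cilium, had a log2 fold change of -0.71 (edgeR adjusted p = 5.43e-07). Grk2, a kinase that phosphorylates Smoothened, had 0.64 (adjusted p = 3.67e-10), and Arrb2, a beta-arrestin, 0.41 (adjusted p = 0.0214). The call for Arrb2 was lost with DESeq2, with library size only (-0.020), with upper-quartile scaling (0.27) and without WT replicate 2 (0.33) or any of Dab2-cKO replicates 1, 2 and 3 (0.41, 0.36 and 0.39). Among 11 genes that control Gli proteins, 5 were lower, 2 higher and 4 not called (median -0.18), and with library size only 7 were lower and none was higher (median -0.61). The 4 with the smallest adjusted p were Prkacb, a catalytic subunit of protein kinase A (0.54, adjusted p = 1.43e-07), the kinase Ulk3 (-0.79, 2.01e-06), casein kinase gene Csnk1a1 (-0.38, 6.87e-06) and the ciliary kinesin Kif7 (-0.72, 1.54e-05). Prkacb was not called with library size only (0.11).

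Of 9 genes listed as hedgehog targets, 6 were lower, none was higher and 3 were not called, with a median log2 fold change of -0.86. Mycn, a growth-promoting transcription factor, fell from 414 ± 5.77 (SD, n = 3) to 48.3 ± 2.76 (-3.09, edgeR adjusted p = 7.61e-31). The normalized count of Sox9, a transcription factor of follicle stem cells and the outer root sheath, went from 966 ± 52.4 to 355 ± 12.7 (-1.45, adjusted p = 4.44e-25). Foxe1, a forkhead factor of the follicle, fell from 147 ± 14.0 to 22.7 ± 1.38 (-2.69, adjusted p = 6.09e-18). Foxm1, a regulator of mitotic genes, fell from 320 ± 16.5 to 127 ± 17.1 (-1.34, adjusted p = 5.27e-15). Sox9 is also on the bulge marker list. These genes also respond to other signals, and Foxm1 and Mycn are high in dividing cells.

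**Figure D4:**
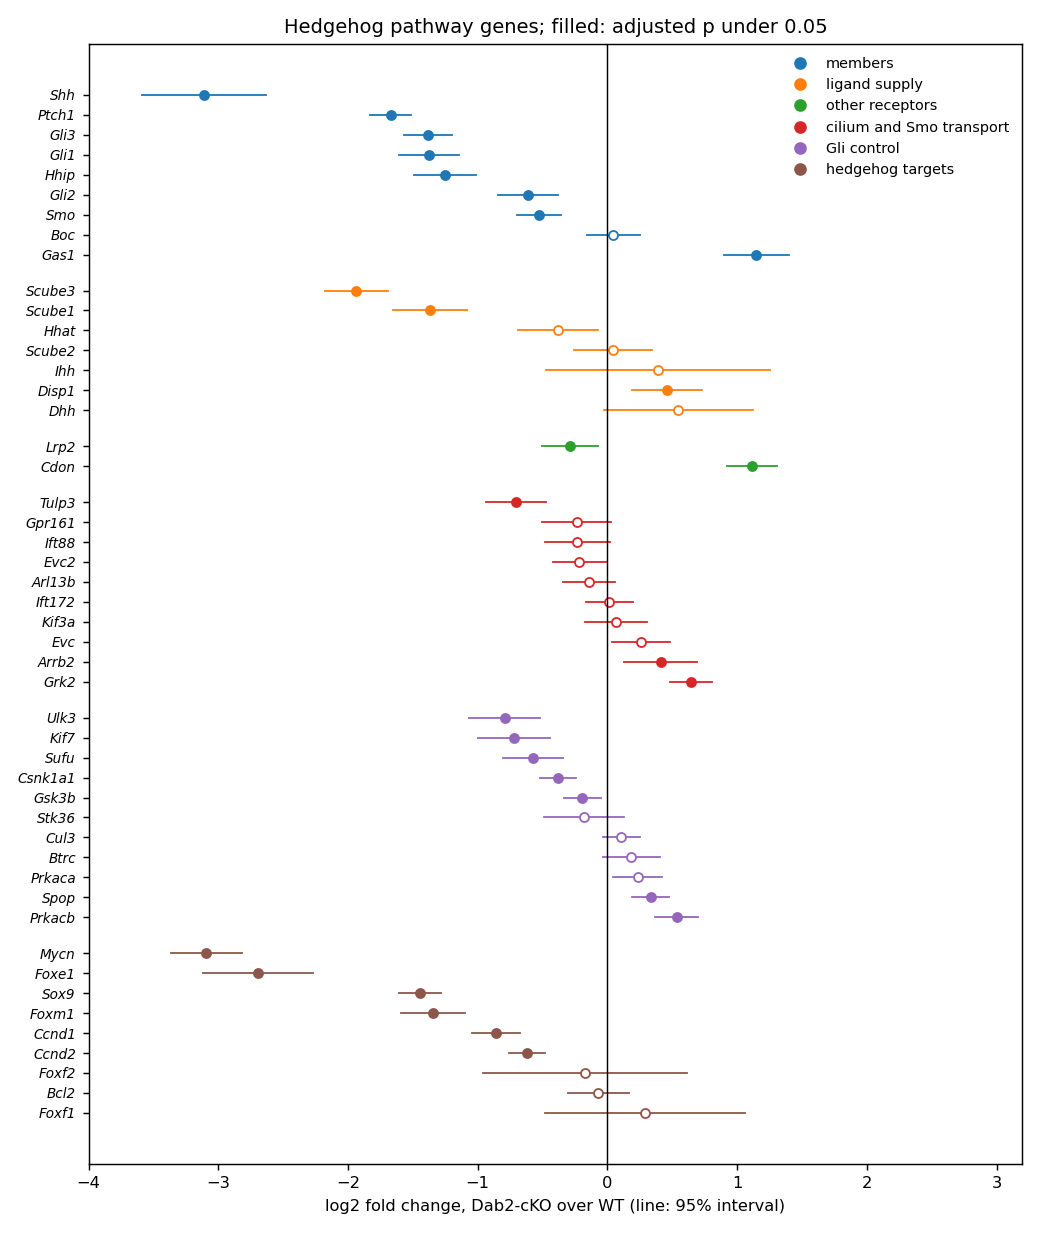
Log2 fold change (Dab2-cKO over WT, edgeR) of the 9 genes and of the 39 other pathway genes by role, with filled points for called genes, open points for the rest and lines for 95% intervals. Shh at -3.11 and Mycn at -3.09 stand lowest, and Gas1 at 1.15 and Cdon at 1.11 stand highest.

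Markers of the follicle's growing part and of other skin cells moved with the same labels. Although the cells were sorted, none of the marker genes with a row in the table was at 0 in all libraries. A count above 0 does not by itself show cells of that type. The olfactory, vomeronasal and trace-amine receptor genes also had a median of 4.94 per kb in WT. Fewer cells of a type and less RNA per cell cannot be told apart in these bulk samples. Of 19 genes of the hair matrix, shaft and inner root sheath, 19 were lower (median log2 fold change -6.58). Their summed normalized count was 249840 to 299470 in WT and 3516 to 3567 in Dab2-cKO. Tchh (-6.74) and Krt71 (-6.94) were the most abundant. All 14 proliferation genes were lower (median -1.32, sums of 11371 to 12488 and 3601 to 3719), with Mki67 at -2.12 and Top2a at -1.72. Of 8 hair germ genes, 7 were lower and 1 was higher (median -1.09, sums 3551 to 4017 and 1497 to 1609), with Lef1 at -3.09 and Cdh3 at -1.91. All 6 melanocyte genes were lower (median -1.99, sums 3243 to 3588 and 1099 to 1119), with Dct at -1.50 and Mitf at -0.97. The part of these cells in the fall of Shh and of the other 6 lower members was not tested.

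Genes of several lists of non-epithelial cells were higher, as Gas1 was. All 10 fibroblast genes were higher (median 1.62, summed normalized count 103890 to 125530 in WT and 363780 to 383850 in Dab2-cKO), with Col1a1 at 1.56 and Col3a1 at 1.98. Of the dermal papilla list, 3 genes were higher, 3 lower and 4 not called (median 0.08, sums 2032 to 2251 and 2137 to 2208), and the genes with the most counts over all libraries, Enpp2 and Lepr, were at 0.59 and 0.50. Prdm1, named after its values were seen, had the highest mean in WT (574) and was at -1.14. The median of that list turned to -0.062 with upper-quartile scaling and -0.35 with library size only, where 4 genes were lower and none was higher, and apart from the Schwann cell list no other marker list's median changed sign. All 6 endothelial genes were higher (median 1.84, sums 962 to 1157 and 3890 to 3919), with Pecam1 at 1.88 and Cdh5 at 1.84. Of 6 pericyte and smooth muscle genes, 5 were higher and 1 lower (median 1.08, sums 3335 to 3822 and 7396 to 7406), with Myh11 at 1.66 and Acta2 at 0.65. Of 7 immune genes, 6 were higher and 1 was not called (median 1.52, sums 1707 to 1909 and 7570 to 7729), with Cd74 at 2.23 and Lyz2 at 2.53. Of the 3 Schwann cell genes reported here, Mbp was higher (1.23) and 2 were not called (median 0.12, sums 409 to 436 and 706 to 788), and the median turned to -0.021 with upper-quartile scaling and -0.31 with library size only. All 6 skeletal muscle genes were higher (median 2.55, sums 23573 to 27374 and 132180 to 135150), with Acta1 at 2.65 and Myh1 at 2.48. Their part in the rise of Gas1 and Cdon, and in the levels of Boc, was not tested.

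Of the epithelial lists that stay outside the matrix, the bulge list had 7 genes higher and 5 lower (median 0.46, summed normalized count 19977 to 22883 in WT and 33153 to 34068 in Dab2-cKO), with Krt14 at 0.85 and Krt5 at 0.62. The 5 lower genes were Sox9 (-1.45), Lhx2 (-1.43), Lgr5 (-1.32), Tbx1 (-1.99) and, with the smallest fall of the 5, Foxc1, named after their values were seen. The 3 keratins of the list, of which Krt14 and Krt5 are made by basal keratinocytes in general, summed to a mean of 16851 in WT and 28423 in Dab2-cKO, and its other genes to 4625 and 5069. With library size only, 5 genes of the bulge list were higher and 5 lower (median 0.036). Of 8 genes of the sebaceous gland and infundibulum, 7 were higher and 1 lower (median 1.27, sums 12248 to 13915 and 30154 to 31221), with Scd1 at 1.65 and Fasn at 0.27, and with library size only 6 were higher and 2 lower. Of 7 genes of the interfollicular epidermis, 6 were higher and 1 lower (median 1.65, sums 12186 to 14117 and 46697 to 47475), with Krt10 at 2.37 and Krt1 at 2.99. The part of these lists in the fall of Ptch1, Gli1 and Hhip was not tested.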

How the data were processed

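RNA-seq was analysed for 6 libraries, 3 for each genotype label. The authors sequenced total RNA, trimmed reads with fastp 0.23.4, aligned them to GRCm39 with HISAT2 2.2.1 and counted them per gene with featureCounts 2.0.6, and deposited raw counts without normalization. The annotation release, the strand setting and the use of multimapping reads are not given in the sources used here. The deposited table of the authors' own DESeq2 comparison was not used. Columns named FL-FL were taken as Dab2-cKO, since the series title writes that genotype as the floxed homozygote. Counts were tested with edgeR 4.0.16 (R 4.3.3; filterByExpr, TMM, robust quasi-likelihood fit, genotype only; Benjamini-Hochberg over 32149 genes), which was tested on simulated data. In those simulated data few genes changed, equally in both directions, so the dependence on scaling was not tested there. Intervals are at the 95% level. Exon lengths and member coordinates came from GENCODE on GRCm39, and promoter windows from RefSeq.

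The members and lists were chosen with earlier results of these data known, and the changes in the marker lists are no independent support. Named were all members, the called genes of each pathway list (the 4 with the smallest adjusted p where more than 4 were called), the 2 most abundant genes of each marker list, the targeted gene, the sorting markers, and the 3 genes most like Shh and Gli1. Flanking genes and lncRNAs were chosen by position. Some genes of the lists are not reported here. Alternatives were DESeq2 1.42.0, other scalings and filters, a replicate block and leaving out each library. Replicate numbers were shared between the labels, but deviations of same-numbered libraries correlated at 0.1 or less, so they were not treated as pairs.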

Additional observations from a re-analysis of the deposited data

How the results depend on the processing

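Of the 9 members, 8 were called in the same direction in all 13 alternatives, including each left-out library. Their log2 fold changes ranged from -3.54 to -2.84 for Shh, -2.10 to -1.58 for Ptch1, -1.80 to -1.21 for Gli1 and 0.72 to 1.23 for Gas1. Boc changed sign with upper-quartile scaling (-0.10), library size only (-0.38) and a mean count of at least 50 (-0.041), and ranged from -0.017 to 0.14 with a library left out, and its adjusted p ranged from 0.000839 to 0.978. Over all genes, 9069 were called, 7586 with DESeq2, 7996 to 8546 with a library left out, and 13854 with library size only, where the median log2 fold change was -0.45 and Arrb2 (-0.020) and Spop (-0.093) changed sign. For the other called pathway genes, the call was lost in 18 fits, of 6 genes. Same-numbered libraries correlated at 0.023, 0.012 and 0.0076 in their deviations from the group means, and each correlated best with its own number, a hint from the data only. With the replicate block 8967 genes were called, with 8 members. The cause of these shifts was not tested. Depth limits Shh most, with 7 to 23 counts per library labelled Dab2-cKO.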

Other observations

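Only genes whose normalized count averaged at least 100 were compared. Among these, the genes most like Shh over the 6 libraries were sought by Pearson's r of log2(normalized count + 1). They were Npc1 (r = 0.998), a transporter of cholesterol out of lysosomes, Ahcy (0.998), an enzyme of the methionine cycle, and Krt33b (0.998), a hair keratin that is also on the matrix and shaft marker list, and 801 genes had r over 0.95. For Gli1 they were Nt5e (0.999), Lhx2 (0.999) and Zdhhc5 (0.999). Nt5e encodes the surface enzyme CD73, Lhx2 is a transcription factor of follicle stem cells and Zdhhc5 is a palmitoyltransferase. Of the 10845 genes compared with Gli1, 1296 had r over 0.95. With 6 libraries in 2 groups, any gene that differs between the labels with little spread scores high, and the genes share libraries and depth, so r is given as a description.

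The nearest protein-coding genes on either side of the 9 members that do not overlap them numbered 18, of which 5 were called lower and 1 higher. Genes overlapping a member were passed over, such as the protein-coding Arhgap9 at Gli1. On the opposite strand, Arhgap9 and the lncRNA Gm47200 together cover 7.34% of the exon bases of Gli1. Over all genes tested, 11.5% were called lower and 16.8% higher. Of the 14801 genes with a mean count of at least 50, 4062 were called lower and 4461 higher. Beside Shh, Rbm33, at 37.6 kb, had a log2 fold change of -0.12 (adjusted p = 0.249 in edgeR's quasi-likelihood test) and Rnf32, at 728.1 kb, had -0.70 (adjusted p = 0.00686). Beside Ptch1, Fancc, at 11.1 kb, had -0.02 and Ercc6l2, at 241.6 kb, had -0.36 (adjusted p = 0.00193). Dapk1, a kinase gene at 424.5 kb from Gas1, was the 1 called higher (0.80), and Tut7 on the other side of Gas1 was at 0.09. These flanks were chosen for position, and the examples were named after their values were seen.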
